A study of Mus musculus with 2 samples.

Results

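Peptide hormone and cytokine receptors of the adrenal gland were examined as a set of 10 genes, chosen by name out of 55536 annotated genes: the prolactin receptor Prlr, the growth hormone receptor Ghr, the leptin receptor Lepr, the insulin receptor Insr, the luteinizing hormone receptor Lhcgr, the vasopressin receptor Avpr1a, the endothelin receptors Ednra and Ednrb, and the VIP and PACAP receptors Vipr1 and Adcyap1r1. All 10 symbols matched 1 gene identifier each. Total RNA of adrenal gland tissue was sequenced from male B6CASTF1/J mice, the first-generation cross of C57BL/6J with the wild-derived CAST strain, at 25 days of age, and the labels give no treatment. The design holds 1 group of 2 libraries from 300 ng of RNA each, so it implies levels and the spread between the libraries but no comparison of conditions. The biosample labels number the animals 3 (replicate 1) and 4 (replicate 2), whereas the library labels number both as animal 3, so the spread may be partly technical.

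These receptors let the gland read signals other than ACTH. Prolactin, growth hormone and leptin receptors belong to the class I cytokine receptors, which have no kinase of their own and signal through bound JAK kinases to STAT factors. The insulin receptor is itself a tyrosine kinase. The remaining members are G protein-coupled receptors: the LH, VIP and PACAP receptors act mainly through Gs and cyclic AMP, and the vasopressin and endothelin receptors mainly through Gq and calcium. In adrenal physiology, vasopressin and endothelin are known to stimulate steroid output and PACAP is known as a transmitter at chromaffin cells.

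The libraries held 35283841 and 35156690 expected counts in replicate 1 and replicate 2. All 7 cortex markers (Star, Cyp11a1 and others) and all 5 chromaffin markers had a level of at least 1 TPM (a level per transcript length, scaled to the total of the library) in both libraries, as the tissue label says. Both libraries also carried transcripts of other tissues. The 7 liver markers summed to 28.5 TPM in replicate 1 against 21221 TPM in replicate 2, with none of them at 0 in either library. The 6 skeletal muscle markers summed to 1196 TPM in replicate 1 against 1.81 TPM in replicate 2. The 5 white adipocyte markers summed to 2314 and 1931 TPM, the 4 brown adipocyte markers to 1169 and 802 TPM, and the 5 kidney markers to 0.4 and 0.29 TPM. Since several of these receptors are also made by liver, muscle or fat, a receptor's level here is that of the dissected sample, and in bulk tissue fewer cells of a type and less RNA per cell cannot be told apart.

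Of the 10 receptors, 8 had at least 1 TPM in both libraries, and Vipr1 and Lhcgr did not. That level was reached by 13119 of the 55536 annotated genes, 11914 of them nuclear protein-coding. Ghr, Prlr and Insr formed the upper tier, with means of 65.1 ± 43.8, 49.0 ± 4.03 and 48.2 ± 8.01 TPM (SD, n = 2), above 93.1%, 90.2% and 90.1% of the 11914 nuclear protein-coding genes that reached 1 TPM in both libraries. Below them, Ednrb was at 14.9 ± 5.80 TPM, Adcyap1r1 at 8.73 ± 3.14, Ednra at 5.95 ± 1.42 and Lepr at 4.08 ± 1.82 TPM. They lay above 62.2%, 43.5%, 31.2% and 21.5% of the same coding genes. Avpr1a, at 2.80 ± 2.33 TPM, and Vipr1, at 1.73 ± 2.28 TPM, lay above 13.1% and 5.27%. The Vipr1 mean came mostly from replicate 2, at 3.34 TPM against 0.11 TPM in replicate 1. Lhcgr was listed at 0 in both libraries. Between neighbours in this order, the values of the libraries were apart only between Insr and Ednrb and between Vipr1 and Lhcgr; all other neighbours overlapped. These levels are from the first of 2 deposited quantifications, made from a transcriptome alignment, and the second was made from the reads and an index. The order of Ghr, Prlr and Insr among themselves was not the same in both libraries.

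**Figure D1:**
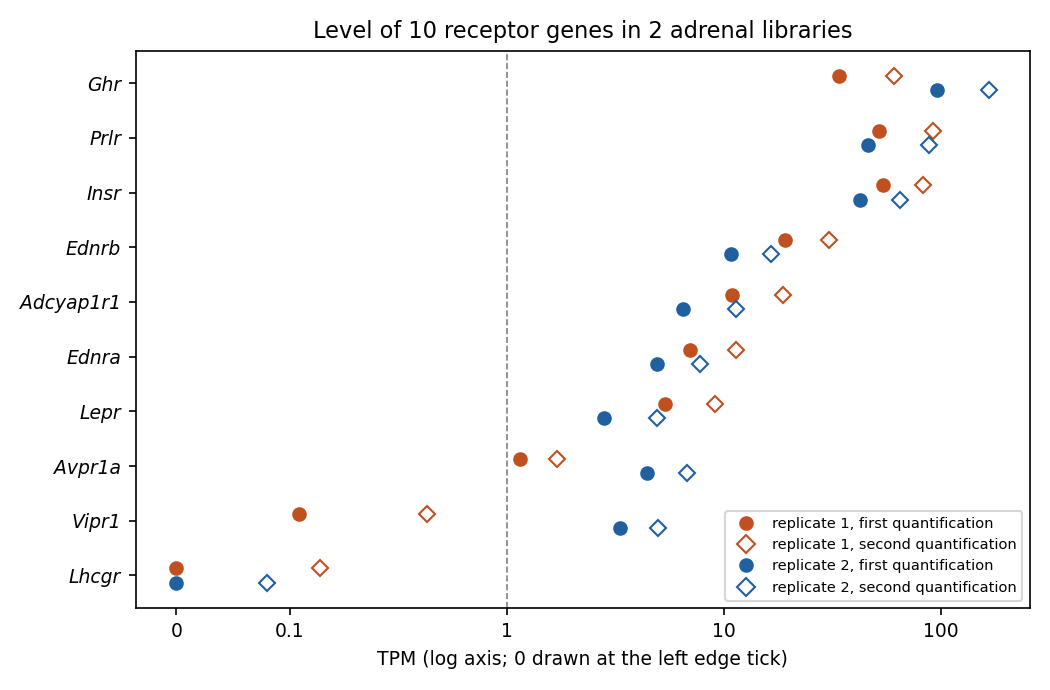
Level of each receptor gene in TPM (log axis, 0 drawn at the left tick) in replicate 1 and replicate 2, from the first quantification (filled circles) and the second (open diamonds); the dashed line marks 1 TPM. Ghr, Prlr and Insr lie above 30 TPM in both libraries, and Vipr1 is at 0.11 TPM in replicate 1 against 3.34 TPM in replicate 2.

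Prlr (ENSMUSG00000005268.20, mm10 chromosome 15, 10177238 to 10349180, plus strand) was at 51.9 TPM in replicate 1 against 46.2 TPM in replicate 2, from 8563 and 5975 expected counts. In TPM of the first quantification its SD was the smallest relative to its mean among the 9 receptors with counts, whereas by scaled counts Insr lay closer between the libraries, with a log2 ratio of 0.19 against 0.28 for Prlr. The receptor exists in a long form, whose intracellular tail couples to STAT5, and in short forms that share the ligand-binding part but end soon after the membrane. The long transcript Prlr-202, with 608 codons, took 41.3% of the gene's TPM in replicate 1 against 27.5% in replicate 2. The short transcript Prlr-205, with 310 codons, took 3.35% and 8.97%. Prlr-204 and Prlr-212, the other short protein-coding transcripts with a complete coding sequence, took under 1% each. The ratio of the long transcript to Prlr-204, Prlr-205 and Prlr-212 together was 12.3 in replicate 1 and 2.87 in replicate 2. In the second quantification it was 14.6 and 3.42. Prlr-209, annotated for nonsense-mediated decay but with a complete coding sequence of 292 codons, was left out of that ratio and took 1.44% and 8.03%. With it counted as short, a choice made after seeing the data, the ratio was 8.61 in replicate 1 and 1.56 in replicate 2, while the second quantification gave that model almost nothing and kept 14.6 and 3.42. This shift lay beside the 28.5 and 21221 TPM of liver markers, and their part in it was not tested. A further 38.3% and 36.6% of TPM was assigned to Prlr-203, an incomplete model of 564 nt, but it held only 316 and 266 counts, against 7162 and 4223 on Prlr-202. The retained-intron model Prlr-201 took 12.9% and 7.44%. Other models were prominent in the second quantification alone: the incomplete Prlr-206, with 15.2% and 25.9% there against 0.47% and 1.73% in the first, and the non-coding Prlr-211, with 3.65% and 10.1% there against 0.63% and 1.47%. The shares of these models thus depended on the method, while the long form stayed above the short coding forms in both.

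The long and short prolactin receptors part at the splice site shown here, 20 shared bases in lower case and then, in capitals, the first bases of each form's own coding part (GRCm38, plus strand, chr15:10328281-10328340 for the long and chr15:10346410-10346499 for the short form).
Prlr-202 (long): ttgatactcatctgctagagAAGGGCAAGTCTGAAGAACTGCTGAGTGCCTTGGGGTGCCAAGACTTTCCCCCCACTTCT
Prlr-205 (short): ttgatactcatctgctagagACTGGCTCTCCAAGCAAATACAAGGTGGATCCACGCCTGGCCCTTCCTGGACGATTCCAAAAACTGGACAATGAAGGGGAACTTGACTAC

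Ghr (ENSMUSG00000055737.12, chromosome 15, 3317760 to 3583492, minus strand) was at 34.1 TPM in replicate 1 against 96.1 TPM in replicate 2, from 2167 and 6325 counts. In mice the gene makes both the membrane receptor and, by an alternative last exon, the secreted growth hormone binding protein, which carries the hormone-binding part without the membrane anchor. The binding protein transcripts, with 297 codons, took 61.6% of the gene's TPM in replicate 1 against 62.1% in replicate 2, and the full receptor transcripts, with 650 codons, took 26.7% and 29.6%. Binding protein transcripts outnumbered full receptor transcripts 2.30-fold in replicate 1 and 2.10-fold in replicate 2, and 2.39-fold and 1.98-fold in the second quantification. The balance of the forms thus moved little between the libraries, although the summed level of the gene differed most among the upper tier. Within the binding protein class, Ghr-203 took 60.9% and 60.5% and Ghr-202 took 0.64% and 1.55%, whereas the second quantification gave 37.0% and 34.2% to Ghr-203 and 23.8% and 23.2% to Ghr-202. Both encode the same number of codons. By counts, which also scale with transcript length, the order was the other way, with 35.5% and 34.3% of counts on binding protein transcripts against 58.5% and 61.4% on the full receptor.

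The capitals mark where the forms of Ghr part: the binding protein's own tail, to and including its stop codon (GRCm38, minus strand, chr15:3327604-3327686), and the first bases of the exon used by the membrane receptor (chr15:3325929-3325988), each after 20 shared bases.
Ghr-203 (binding protein): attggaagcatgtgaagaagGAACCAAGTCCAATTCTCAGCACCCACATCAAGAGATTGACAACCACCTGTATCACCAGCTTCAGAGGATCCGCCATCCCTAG
Ghr-201 (membrane receptor): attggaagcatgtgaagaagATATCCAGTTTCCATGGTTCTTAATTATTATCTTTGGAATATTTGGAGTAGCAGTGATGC

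Lepr (ENSMUSG00000057722.17, chromosome 4, 101717404 to 101815352, plus strand) was at 5.37 TPM in replicate 1 against 2.79 TPM in replicate 2, from 753 and 452 counts. Its long form carries the tail that activates STAT3, while the short forms end a few codons after the part they share with it. The short transcript Lepr-203, with 894 codons, took 65.7% of the gene's TPM in replicate 1 against 77.2% in replicate 2, and the long transcript Lepr-201, with 1162 codons, took 5.87% and 6.75%. The short form exceeded the long form 11.2-fold in replicate 1 and 11.4-fold in replicate 2. In the second quantification the ratios were 10.8 and 10.3, so the order held in both libraries by both methods. The long form rested on 43.3 and 25.7 expected counts, at 0.31 and 0.19 TPM. Lepr-202, another short form, took 2.97% and 8.74%, and the non-coding Lepr-207 took 20.1% in replicate 1 and 0.04% in replicate 2 on 29.1 and 0.03 counts. Lepr-204, also non-coding, took 5.31% and 0% in the first quantification and 10.9% and 5.57% in the second. Leptin-receptor forms part after the same 20 bases, and the short form's own coding part is only the 18 bases in capitals, stop codon included (GRCm38, plus strand, chr4:101811348-101811365), against the first 60 of the long form (chr4:101814448-101814507).
Lepr-203 (short): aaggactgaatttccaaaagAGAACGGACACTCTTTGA
Lepr-201 (long): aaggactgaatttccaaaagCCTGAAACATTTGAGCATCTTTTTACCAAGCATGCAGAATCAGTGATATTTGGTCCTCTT

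Insr (ENSMUSG00000005534.10, chromosome 8, 3122061 to 3279617, minus strand) was at 53.9 TPM in replicate 1 against 42.6 TPM in replicate 2, from 9667 and 7186 counts. Skipping or inclusion of a short exon of 36 bases gives the A and B forms of the receptor, of which the A form also binds IGF2 tightly. The full-length transcript Insr-201 lacks this exon and took 49.8% of the gene's TPM in replicate 1 against 46.4% in replicate 2. Insr-203, an incomplete model of 672 nt that contains the exon, took 22.1% and 24.1%. The ratio of the model with the exon to the one without it was 0.443 and 0.520, and 0.526 and 0.621 in the second quantification, so the model without the exon was the more abundant per length in both libraries. The 2 models differ greatly in length, and the one with the exon held 233 and 199 counts against 8490 and 6193. Insr-201 is also the only Insr model with a complete coding sequence. Reads of a full-length transcript with the exon that fall outside Insr-203 could therefore be assigned to Insr-201. The ratio is one between models, not a direct count of reads across the exon's junctions, and it cannot rank the A and B forms. A retained-intron model, Insr-202, took a further 25.1% and 26.0%. The alternative exon lies at chr8:3181702-3181737 (GRCm38, minus strand) and is shown in capitals between 20 bases of its neighbours, above the junction that forms without it.
Insr-203 (with the exon): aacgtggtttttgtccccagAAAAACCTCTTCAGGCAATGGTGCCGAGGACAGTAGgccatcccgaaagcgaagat
Insr-201 (without it): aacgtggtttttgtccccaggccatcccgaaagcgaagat

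**Figure D2:**
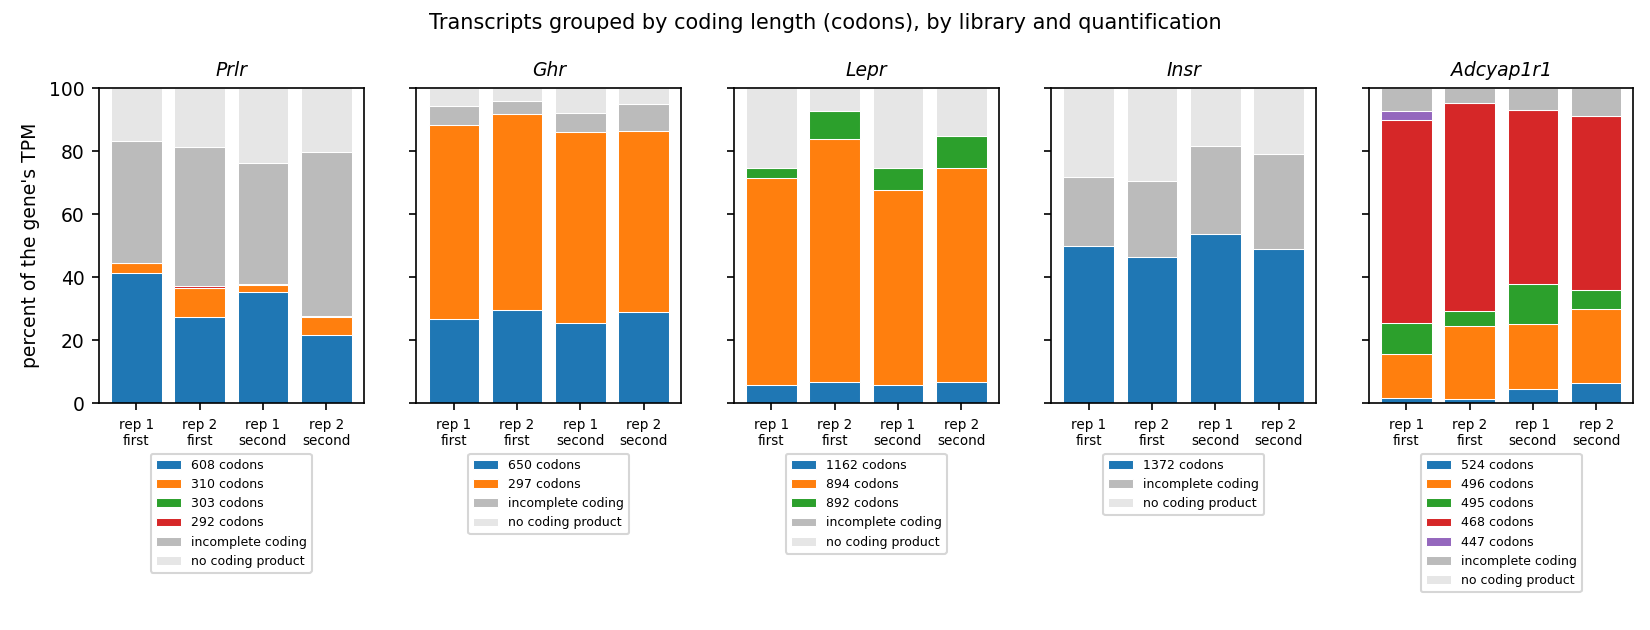
Percent of each gene's TPM on its transcripts, grouped by the length of a complete coding sequence in codons, with incomplete coding models and models with no coding product, nonsense-mediated decay included, in grey, for replicate 1 and replicate 2 in the first and the second quantification. Growth hormone binding protein (297 codons) is above the full receptor (650 codons) in all 4 bars, and the short leptin receptor (894 codons) takes 61.9% to 77.2%.

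Adcyap1r1, the receptor selective for PACAP (ENSMUSG00000029778.12, chromosome 6, 55451978 to 55501451, plus strand), was at 10.9 TPM in replicate 1 against 6.51 TPM in replicate 2, from 1737 and 1084 counts. It is spliced with or without the so-called hop cassettes in an intracellular loop, which alter its coupling to G proteins. The transcript without a cassette, with 468 codons, took 64.7% of the gene's TPM in replicate 1 against 65.8% in replicate 2. The transcript with a cassette of 84 bases took 14.2% and 23.1%, and the one with a cassette of 81 bases, which starts 3 bases later, took 9.57% and 4.88%. Together these 2 cassette transcripts stood at 0.368 and 0.424 of the one without, and at 0.599 and 0.536 in the second quantification. A longer coding transcript, with 524 codons, was left out of this ratio, and whether it holds a cassette was not examined. It took 1.56% and 1.47% in the first quantification and 4.59% and 6.28% in the second. The split between the cassettes rests on few reads, with 191 and 183 counts for the longer cassette and 58.9 and 17.7 for the shorter. The form without a cassette and those with the longer or the shorter one are shown around the cassette. The cassette is in capitals (GRCm38, plus strand, chr6:55491227-55491310 for the longer and chr6:55491230-55491310 for the shorter), with 20 bases of its neighbours in lower case.
Adcyap1r1 (no cassette): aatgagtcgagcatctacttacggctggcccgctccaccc
Adcyap1r1 (cassette of 84 bases): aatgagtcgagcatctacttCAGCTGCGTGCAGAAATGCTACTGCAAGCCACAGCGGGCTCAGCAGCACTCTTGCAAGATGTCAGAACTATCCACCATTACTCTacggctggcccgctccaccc
Adcyap1r1 (cassette of 81 bases): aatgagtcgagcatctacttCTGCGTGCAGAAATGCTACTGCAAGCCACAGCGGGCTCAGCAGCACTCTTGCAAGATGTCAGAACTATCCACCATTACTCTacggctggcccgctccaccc

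Vipr1, which binds VIP and PACAP alike (ENSMUSG00000032528.5, chromosome 9, 121642716 to 121672954, plus strand), was at 0.11 TPM in replicate 1 against 3.34 TPM in replicate 2, from 18 and 448 counts. Replicate 2 was the high one, and 1 TPM was passed there alone. In replicate 1 the PACAP receptor exceeded Vipr1 99.5-fold per length, and in replicate 2 only 1.95-fold, so the mean of this ratio says little. These are log2 ratios of 6.64 and 0.96, against 5.45 and 1.18 in the second quantification. The replicate 1 ratio rests on only 18 Vipr1 counts. The coding transcript of Vipr1 took 100% of the gene's TPM in replicate 1 against 80.9% in replicate 2, whereas the second quantification gave it 39.6% and 85.1%. The rest lay on models with no coding product. In replicate 2 these held 1.69% of the counts in the first quantification. In the second quantification they held 7.12% in replicate 1 and 0.735% in replicate 2. The related Vipr2 was low in both, at 0.15 and 0.1 TPM.

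The endothelin receptors were both present. Ednrb (ENSMUSG00000022122.15, chromosome 14, 103814625 to 103844402, minus strand) was at 19.0 TPM in replicate 1 against 10.8 TPM in replicate 2, and Ednra (ENSMUSG00000031616.7, chromosome 8, 77663031 to 77724464, minus strand) at 6.95 and 4.94 TPM, from 2404 and 1388 counts for Ednrb and 832 and 583 for Ednra. An annotated gene on the opposite strand overlaps Ednra, 4933431K23Rik, and it was at 0.05 and 0.06 TPM; whether counting used the strand is not stated. Ednra is known best from vascular smooth muscle, and Ednrb from endothelium and cells of neural crest origin. Ednrb exceeded Ednra 2.74-fold in replicate 1 and 2.19-fold in replicate 2, a log2 ratio of 1.29 ± 0.23 (SD, n = 2), and the libraries' values for the pair did not overlap. Markers of the cells that could hold them were present in both libraries: the 5 endothelial markers summed to 132 and 105 TPM and the 5 mural cell markers to 69.1 and 47.1 TPM. The Schwann and sustentacular markers were low, with 2 of 5 at 1 TPM or more in both libraries. All 3 Ednrb transcripts encode the same number of codons, 442, and the first and second quantifications divided them differently. Ednrb-202 took 55.9% and 58.6% in the first and 16.0% and 7.6% in the second. Ednrb-201 took 27.1% and 30.0% in the first and 69.8% and 86.1% in the second, and Ednrb-203 took 17.1% and 11.5% in the first. Ednra-201 took 95.2% and 89.97% of its gene's TPM, and the retained-intron model Ednra-202 took 4.76% and 10.03%.

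Avpr1a, the receptor through which vasopressin acts on vessels and liver (ENSMUSG00000020123.6, chromosome 10, 122448499 to 122453452, plus strand), was at 1.15 TPM in replicate 1 against 4.44 TPM in replicate 2, from 101 and 387 counts on its single transcript. Avpr1b and Avpr2, the other vasopressin receptors, had 0 counts in both libraries in the first quantification. The oxytocin receptor Oxtr, of the same family, was higher than Avpr1a in both, at 28.3 and 11.6 TPM.

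Lhcgr (ENSMUSG00000024107.7, chromosome 17, 88716481 to 88791990, minus strand) had 0 expected counts in both libraries, which allows up to 0.0290 TPM in replicate 1, and 0.0292 TPM in replicate 2, at a floor of 3 counts. This floor covers counting error only. The second quantification gave it 22.4 and 13.1 estimated counts, or 0.137 and 0.0786 TPM, all on the coding transcript Lhcgr-201, so by either method it was far below 1 TPM. Its relative Fshr, the receptor for follicle-stimulating hormone, was at 0 by both. Of the markers of Leydig cells, the testicular cells best known for Lhcgr, Insl3 was at 1.95 and 1.41 TPM, Cyp17a1 at 1.18 and 1.73 TPM and Hsd17b3 at 0.47 and 0.16 TPM.

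The receptors were then compared between the libraries, as the ratio of TMM-scaled counts of replicate 1 over replicate 2. There is 1 library on each side, so these ratios carry a 95% exact counting interval, no replicate check and no p-value. Of the 9 receptors with at least 10 counts, 3 were lower in replicate 1 by 2-fold or more and 0 were higher by that much. Over all 19801 genes with that many counts, the shares were 10.2% lower and 3.93% higher, and among detected nuclear protein-coding genes 4.79% and 0.546%. Of all genes past 2-fold, 27.8% were higher in replicate 1 with TMM, 39.6% by total counts and 48.1% by spike-ins. With so few members, 3 of 9 is given as a count only.

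Ghr was 3.44-fold lower in replicate 1 (interval 3.28 to 3.62), Avpr1a 4.52-fold lower (3.62 to 5.68) and Vipr1 29.4-fold lower (18.4 to 50). All 3 stayed at least 2-fold lower with DESeq2 size factors, total counts, spike-in totals, TPM or the second quantification. These 3 receptors were high in the library with the 21221 TPM of liver markers, against 28.5 TPM in replicate 1, and the 7 liver markers themselves were lower in replicate 1 by a median of -9.77 on the log2 scale; their part in the receptors' difference was not tested. The skeletal muscle markers, 1196 and 1.81 TPM, ran the other way.

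The other 6 receptors were slightly higher in replicate 1. Ednrb had a log2 ratio of 0.55 (interval 0.46 to 0.65), Lepr of 0.50 (0.33 to 0.67) and Adcyap1r1 of 0.44 (0.33 to 0.55), while Prlr was at 0.28, Ednra at 0.27 and Insr at 0.19. The cortex markers had a median of 0.64, the chromaffin markers of 0.28, the endothelial markers of 0.10 and the white adipocyte markers of 0.10, beside 0.02 over detected nuclear protein-coding genes. Scaling moved all genes together: that last median became 0.25 when scaled by total counts, where the 6 receptors ranged from 0.42 to 0.79, and 0.38 when scaled by spike-ins, where they ranged from 0.55 to 0.91. None of the 6 reached 2-fold under any of these scalings.

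**Figure D3:**
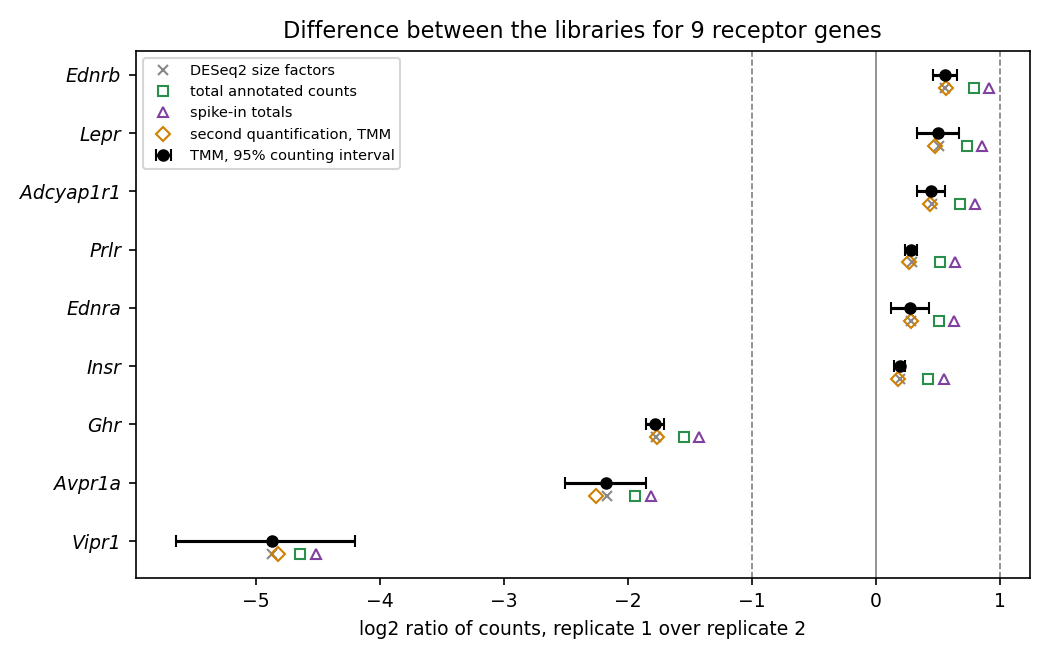
Log2 ratio of counts, replicate 1 over replicate 2, for the 9 receptors with at least 10 counts: black circles are TMM-scaled with 95% exact counting intervals, and the open symbols below each are other scalings and the second quantification; dashed lines mark 2-fold. Ghr, Avpr1a and Vipr1 lie left of the lower line under every scaling, and the other 6 lie between 0 and 1.

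**Figure D4:**
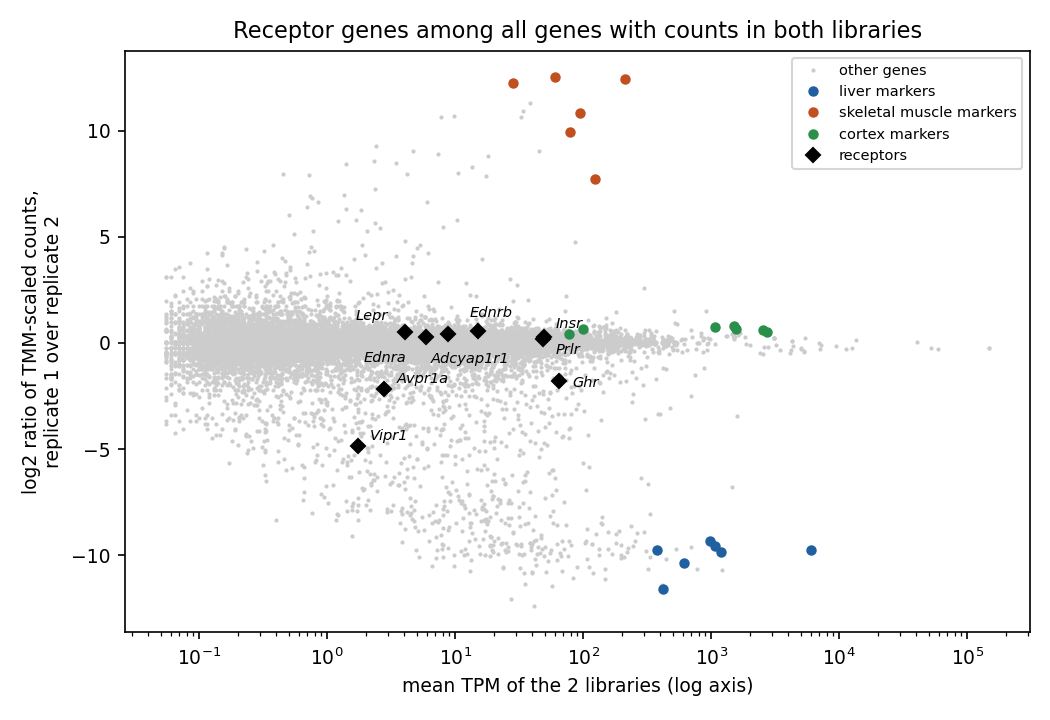
Log2 ratio of TMM-scaled counts, replicate 1 over replicate 2 (vertical), against the mean TPM of the libraries (log axis) for genes with counts in both; receptors are black diamonds, and liver, skeletal muscle and cortex markers are coloured. The liver markers lie near -10 and the muscle markers above 7, and Vipr1, Avpr1a and Ghr lie between the liver markers and the other receptors.

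Few ligands of these receptors were detected. Of 13 ligand genes, 2 had at least 1 TPM in both libraries. Edn3, endothelin 3, which acts through Ednrb, was at 5.94 TPM in replicate 1 against 4.07 TPM in replicate 2. Lep, the leptin gene of adipocytes, was at 1.46 and 3.41 TPM. By scaled counts Lep was 2.56-fold lower in replicate 1 (interval 2.05 to 3.21), with a log2 ratio of -1.36 in both quantifications and of -0.998 with spike-in totals. The TPM of the second quantification, 3.29 and 4.14, lay closer together. Edn1, endothelin 1, was at 0.24 and 0.25 TPM. Prolactin, growth hormone, vasopressin, the LH beta subunit and both insulin genes had 0 counts in both libraries, and the neuropeptide genes Vip and Adcyap1 had 3 counts or fewer in each.

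Most signalling partners were detected, beside 13119 of the 55536 annotated genes at the same threshold. For the cytokine receptors, 12 of 13 genes had at least 1 TPM in both libraries, led by the kinase Jak1 at 36.2 ± 4.05 TPM (SD, n = 2) and the phosphatase Ptpn11 at 33.8 ± 6.45 TPM. Of the STAT5 factors, which act downstream of the growth hormone and prolactin receptors, Stat5b was at 24.4 ± 1.77 TPM and Stat5a at 13.7 ± 2.19 TPM. Jak2, the kinase that binds these receptors, was at 5.21 ± 0.693 TPM. The median log2 ratio of this list was -0.11. Of its 13 genes, 2 were lower in replicate 1 by 2-fold or more and 0 higher, beside 10.2% and 3.93% over all genes. The 2 were Cish, at 12.0 TPM in replicate 1 against 26.9 TPM in replicate 2, and Socs2, at 4.99 and 16.8 TPM. Both are known as feedback inhibitors induced by STAT5, and both were picked after their values were seen. In the same list Socs1 had a log2 ratio of 0.03, Socs3 of -0.49, Stat5a of -0.07 and Stat5b of -0.11. Ghr was also low in replicate 1, the library with 28.5 TPM of liver markers against 21221 TPM in replicate 2. A link of Cish and Socs2 to Ghr, and the part of the liver transcripts, were not tested. With spike-in totals the log2 ratios of Cish and Socs2 were -0.76 and -1.53, so that Socs2 alone kept a 2-fold difference.

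For insulin, all 12 genes were detected, with the kinases Akt1 at 73.9 ± 20.3 TPM and Akt2 at 62.9 ± 7.87 TPM and the regulatory subunit Pik3r1 at 32.0 ± 2.11 TPM highest. The list's median log2 ratio was 0.05, and 1 gene, the receptor-binding adaptor Grb14, was at least 2-fold lower in replicate 1, at 9.05 TPM there and 15.7 TPM in replicate 2. With spike-in totals Grb14 was at -0.78. All 14 genes of the G protein list were detected and none differed 2-fold with TMM, with a median of 0.08; with spike-in totals Gna14 did, at 1.11. Gnas, which encodes the Gs alpha subunit, stood far above the others at 837 ± 223 TPM, followed by the regulator Rgs2 at 90.2 ± 28.7 TPM and Gnai2 at 69.2 ± 7.76 TPM. The Gq family members Gna11 and Gnaq were at 22.9 ± 2.95 and 16.3 ± 1.76 TPM. Of the enzymes that make or break down the ligands, all 5 were detected, led by the endothelin-converting enzyme Ece1 at 81.9 TPM in replicate 1 against 99.5 TPM in replicate 2, then Lnpep, which cleaves vasopressin and oxytocin, at 36.1 and 28.1 TPM and the insulin-degrading enzyme Ide at 26.1 and 24.1 TPM.

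Of 14 related receptors, 6 were detected. Il6st, the shared chain of the interleukin 6 family receptors, was highest at 98.95 ± 15.8 TPM, above every one of the 10 receptors by its mean. Lifr, the receptor for leukaemia inhibitory factor, was at 16.2 TPM in replicate 1 against 50.8 TPM in replicate 2 and was the 1 gene of the list at least 2-fold lower in replicate 1, with a log2 ratio of -1.26, or -0.90 with spike-in totals. Oxtr was the 1 gene at least 2-fold higher there, with a log2 ratio of 1.07 (interval 0.99 to 1.15). Over all genes, 10.2% were lower and 3.93% higher by that much. Igf1r, the receptor for insulin-like growth factor 1 and a close relative of Insr, was at 25.6 and 12.4 TPM, a log2 ratio of 0.86, or 1.22 with spike-in totals. Per length, Insr exceeded it 2.10-fold in replicate 1 and 3.43-fold in replicate 2.

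**Figure D5:**
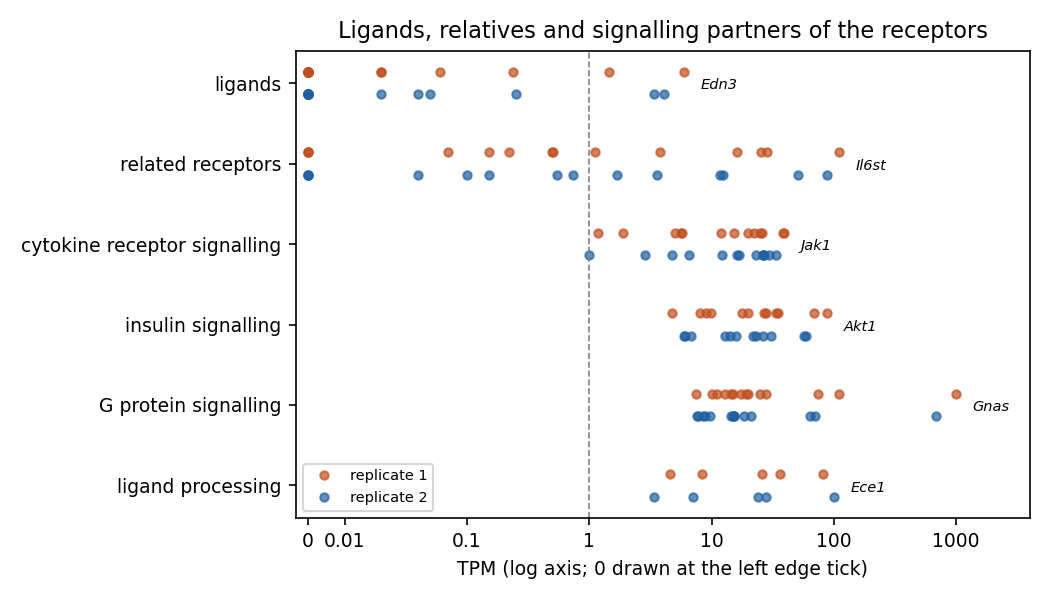
Level in TPM (log axis, 0 drawn at the left tick) of each gene in 6 lists of ligands, relatives and partners of the receptors, with replicate 1 above replicate 2 in each list; the dashed line marks 1 TPM and the gene of highest mean is named. Of the 13 ligands only Edn3 and Lep lie right of the line in both libraries, while all genes of the insulin, G protein and ligand-processing lists do.

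Genes of the most similar level in both libraries were sought for the upper tier among 16221 protein-coding genes, by the distance of log2 TPM over the 2 libraries. The nearest to Ghr were Adk at 37.0 and 95.5 TPM, Sdc4 at 37.5 and 96.7 TPM and Ephx1 at 30.9 and 95.9 TPM. Their distances were 0.121, 0.138 and 0.140. The nearest to Prlr were Psmb2, Eif3g and Poldip2, within 0.0389, and the nearest to Insr were Eif3d, Brk1 and Rab2a, within 0.0154. With 2 libraries this measures only a like level and a like ratio.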

How the data were processed

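Total RNA of 2 adrenal libraries was analysed. The authors used mm10 and annotation M21, per the notes deposited beside the tables. The aligner and quantifiers, and whether counting used the strand of the directional library, were not given in the sources used here. Per the file headers, a first quantification, made from a transcriptome alignment, holds expected counts, TPM and the percent of a gene's TPM on each transcript, and a second, made from the reads and an index, holds TPM and estimated counts by transcript as the authors deposited them, which were summed per gene. The authors' TPM of the first quantification covers genes, spike-ins and other listed sequences, and its deposited posterior SD of the count was at most 1.84 for any receptor.

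Levels are the mean ± SD of both libraries. Expected counts were rounded and scaled by TMM (edgeR 4.0.16, factors 1.08 and 0.923), for genes with at least 10 counts in total, and ratios carry exact binomial 95% counting intervals (scipy 1.17.1), which cover counting error only. Entries that name no gene stayed out; spike-ins held 0.839% and 0.915% of counts. The ratio step was tested on simulated data. Alternatives used DESeq2 1.42.0 size factors, total counts, spike-in totals, TPM ratios and the second quantification.

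Members and lists were chosen with earlier results of these data known. The named genes are all members, ligands with at least 1 TPM in both libraries, the 3 highest genes of each other list, the 3 genes nearest to each of the 3 highest members, and transcripts with at least 10% of a gene's TPM in either library by either quantification. The transcripts of Adcyap1r1 and Vipr1 are named by their structure, and 1 gene that this rule names is not reported here. Others were chosen after their values were seen, among them Cish, Socs2, Stat5b, Jak2, Grb14, Igf1r, Gna11, Gna14, Gnaq, Edn1, Vipr2, Avpr1b, Avpr2, Fshr and the ligands at 0. Gene coordinates and symbols are from GENCODE M21, and printed sequences are its reference transcripts on GRCm38, the C57BL/6J genome, not reads of these mice. The effect of CAST alleles on alignment was not tested.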

Additional observations from a re-analysis of the deposited data

How the results depend on the processing

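The number of receptors at 1 TPM in both libraries was 8 in the second quantification, with TPM over nuclear protein-coding genes and at 0.5 TPM, and 5 at 5 TPM; with either library alone it was 8 to 9. The number of ligand, relative and partner genes detected, 51 of 71, lay between 42 and 54 under other thresholds and the second quantification, and between 51 and 52 with either library alone. The 3 receptors at least 2-fold apart were the same genes under every scaling tried and in the second quantification. Over all genes, 2806 were at least 2-fold apart, 7991 without a count filter and 1385 with at least 100 counts, so this number depended on the filter. No single receptor's ratio reversed. Levels were higher in the second quantification for all 10 receptors; the median of its first-to-second TPM ratio over detected nuclear protein-coding genes was 0.581 in replicate 1 and 0.603 in replicate 2. No paired analysis was possible because there is 1 group. Depth limits Vipr1 in replicate 1, the long leptin receptor and the cassette split of Adcyap1r1, which rest on few counts.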

Other observations

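Lhcgr was 1 of 1281 genes with 0 expected counts in both libraries in the first quantification and at least 10 estimated counts in the second, out of 28440 genes with 0 counts in the first. No annotated gene overlaps it on either strand. Transcript models with no coding product, nonsense-mediated decay included, took 16.6% and 18.5% of Prlr TPM in replicate 1 and replicate 2, 28.1% and 29.6% of Insr TPM, and 25.4% and 7.36% of Lepr TPM. By counts the shares were smaller, at 10.02% and 14.7% for Prlr, 9.77% and 11.05% for Insr, and 4.76% and 0.491% for Lepr. In the second quantification the TPM shares were 23.6% and 20.2% for Prlr, 18.2% and 20.8% for Insr, and 25.4% and 15.1% for Lepr.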
